A study of Mus musculus with 30 samples.

Results

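Egr1, Egr2, Egr3 and Egr4 encode the early growth response factors, and Nab1 and Nab2 encode the corepressors that bind them. Chromatin accessibility around these 6 genes was taken from all peaks that overlap a gene body, as RefSeq places it on GRCm38, or the 10 kb on either side of it. This gave 46 of the 257149 peaks in the count table: 3 for Egr1, 5 for Egr2, 12 for Egr3, 10 for Egr4, 11 for Nab1 and 5 for Nab2. The question was whether daily restraint alters what a single later restraint does to chromatin in the mouse ventral hippocampus. It used ATAC-seq, in which a transposase cuts open chromatin and the fragments are sequenced, with nuclei of 1 ventral hippocampus per library.

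Mice were handled, or were restrained in a tube every day for 10 days. All were then housed singly for 24 h. Tissue came from mice left undisturbed in their cages (0 min) or from mice sampled once 45 min had passed since a final, acute restraint began. Handled mice numbered 8 at 0 min (4 females, 4 males) and 7 at 45 min (3 females, 4 males). Chronically restrained mice numbered 8 at 0 min (4 females, 4 males) and 7 at 45 min (4 females, 3 males). The labels name no strain or age and no genetic change, and they spread the 30 animals over 4 batches. A whole ventral hippocampus mixes neurons and glia, so an opening in few cells and a weaker opening in many cells cannot be told apart.

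EGR factors are zinc finger proteins whose genes are switched on within minutes of synaptic activity, growth factors or stress, through serum response factor with its ETS partners and through CREB. They bind GC-rich sites in the control regions of neuronal and other genes. NAB proteins dock on Egr1, Egr2 and Egr3, recruit the NuRD chromatin remodelling complex and limit transcription from EGR sites. Egr4 lacks the NAB docking domain.

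The RefSeq promoter table (GRCm38.p6) held a start for 4 of the 6 genes, Egr2, Egr4, Nab1 and Nab2. The 250 bases before each start were searched on both strands. The Nab1 window held the EGR site GCGTGGGCG at 2 places, 141 to 133 and 109 to 101 bases before the start, and 0.536% of the 32851 promoter windows in the table hold that site. Both are shown because they put the factors' own recognition letters in front of a corepressor gene, with capitals for the site, read there on either strand:

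Nab1 upper site (chr1:52500575-52500595, minus strand): cgcggcCGCCCACGCcgggat

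Nab1 lower site (chr1:52500543-52500563, minus strand): ggccgcGCGTGGGCGggagcc

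The RefSeq extent of Nab1 reaches further upstream than this start, so both stretches also lie inside the annotated gene. The Nab1 window also held the related site GCGGGGGCG at 1 place, a site in 2.57% of windows, and the CREB core TGACG at 1 place. A GC box (GGGCGG, in 32.7% of windows) overlaps each of the printed sites, and the Nab2 window held 1 GC box and none of the sites shown. For the factors, part of the matches to the inputs named above is shown. The table gives Egr2 several starts, and the stretch printed lies before the 3 most downstream. It carries a CArG box, the serum response factor site, which 1.47% of windows hold, and the core TGACG of the CREB site, which 17.8% hold. In the Egr4 window, 250 bases long and given whole, the capitals mark the core TGACG at 2 places, both read on the other strand:

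Egr2 (chr10:67537795-67537824, plus strand): gtCCATATATGGgcagcgaCGTCAcgggta

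Egr4 (chr6:85513590-85513839, minus strand): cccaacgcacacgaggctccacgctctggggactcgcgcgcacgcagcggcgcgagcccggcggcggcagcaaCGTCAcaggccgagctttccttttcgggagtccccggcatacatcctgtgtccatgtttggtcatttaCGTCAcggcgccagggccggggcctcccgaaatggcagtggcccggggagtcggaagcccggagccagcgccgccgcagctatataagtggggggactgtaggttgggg

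Each of these stretches lies within the peak over the start of its gene. None of the windows of the 4 genes held the palindromic glucocorticoid response element, which 0.00913% of windows hold. A match of letters shows no binding.

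The peak over a gene start was wide at the Egr genes and at Nab2 (positions as the count table gives them, GRCm38). For Egr1 it ran 24806 bp, chr18:34839622-34864427, and also covered Reep2 and the long noncoding RNA gene Gm41689. Of the 15606 distinct start peaks of protein-coding genes, 0.827% were wider, and their median width was 1962 bp. Nab2 lay in a peak of 14920 bp, chr10:127656357-127671276, together with Stat6 and the long noncoding RNA gene 1700012D01Rik. The start peaks of Egr3 (chr14:70073045-70081580), Egr4 (chr6:85507699-85514474) and Egr2 (chr10:67534973-67541544) were 8536, 6776 and 6572 bp wide. Only the Nab1 start peak, chr1:52499514-52501051 at 1538 bp, was narrower than the median. The table gives Egr1 and Egr3 no strand, so for these their start peak is the peak of highest count within 1 kb of a gene end. Any other gene without a listed start was treated likewise, and the nearest peak was taken where none covered a listed start. The 15606 peaks can therefore include some that cover no start.

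Depth differed widely among the 46 peaks. Mean counts per library were 8301 at Egr1, 4155 at Nab2, 2424 at Egr3, 1621 at Egr4, 1214 at Egr2 and 532 at Nab1. Total counts ran from 26104576 to 55294838 per library, and the 46 peaks together took 0.0654% to 0.0709% of them. The 6 start peaks held 68.6% of the counts of the 46, from 40.2% of the Egr4 peaks' counts to 96.5% of those of Egr1. The other 40 peaks had mean counts of 17.3 to 2351. Of the 46, 15 touched the body of their gene, and 12, of which 4 were among those 15, lay over another gene.

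Per length, the start peaks of Nab1 and Egr1 had the highest means of the 6. Those of Egr1, Egr2 and Nab2 are averages over peaks that also cover another gene. Levels are TMM-scaled counts per library total (CPM) divided by peak width, as mean ± SD over 30 libraries. They were 8.72 ± 0.966 CPM per kb at Nab1, 8.47 ± 0.555 at Egr1, 7.18 ± 0.568 at Egr3, 7.06 ± 0.368 at Nab2, 6.05 ± 0.446 at Egr4 and 4.68 ± 0.230 at Egr2. Nab1 was above Egr1 in 18 of 30 libraries and Egr3 above Nab2 in 18 of 30, so neither pair was ordered beyond its spread. Every other step in the order held in 30 of 30 libraries. The median over the start peaks of all protein-coding genes was 5.10 CPM per kb, which puts Egr2 below it and the other 5 genes above it.

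**Figure D1:**
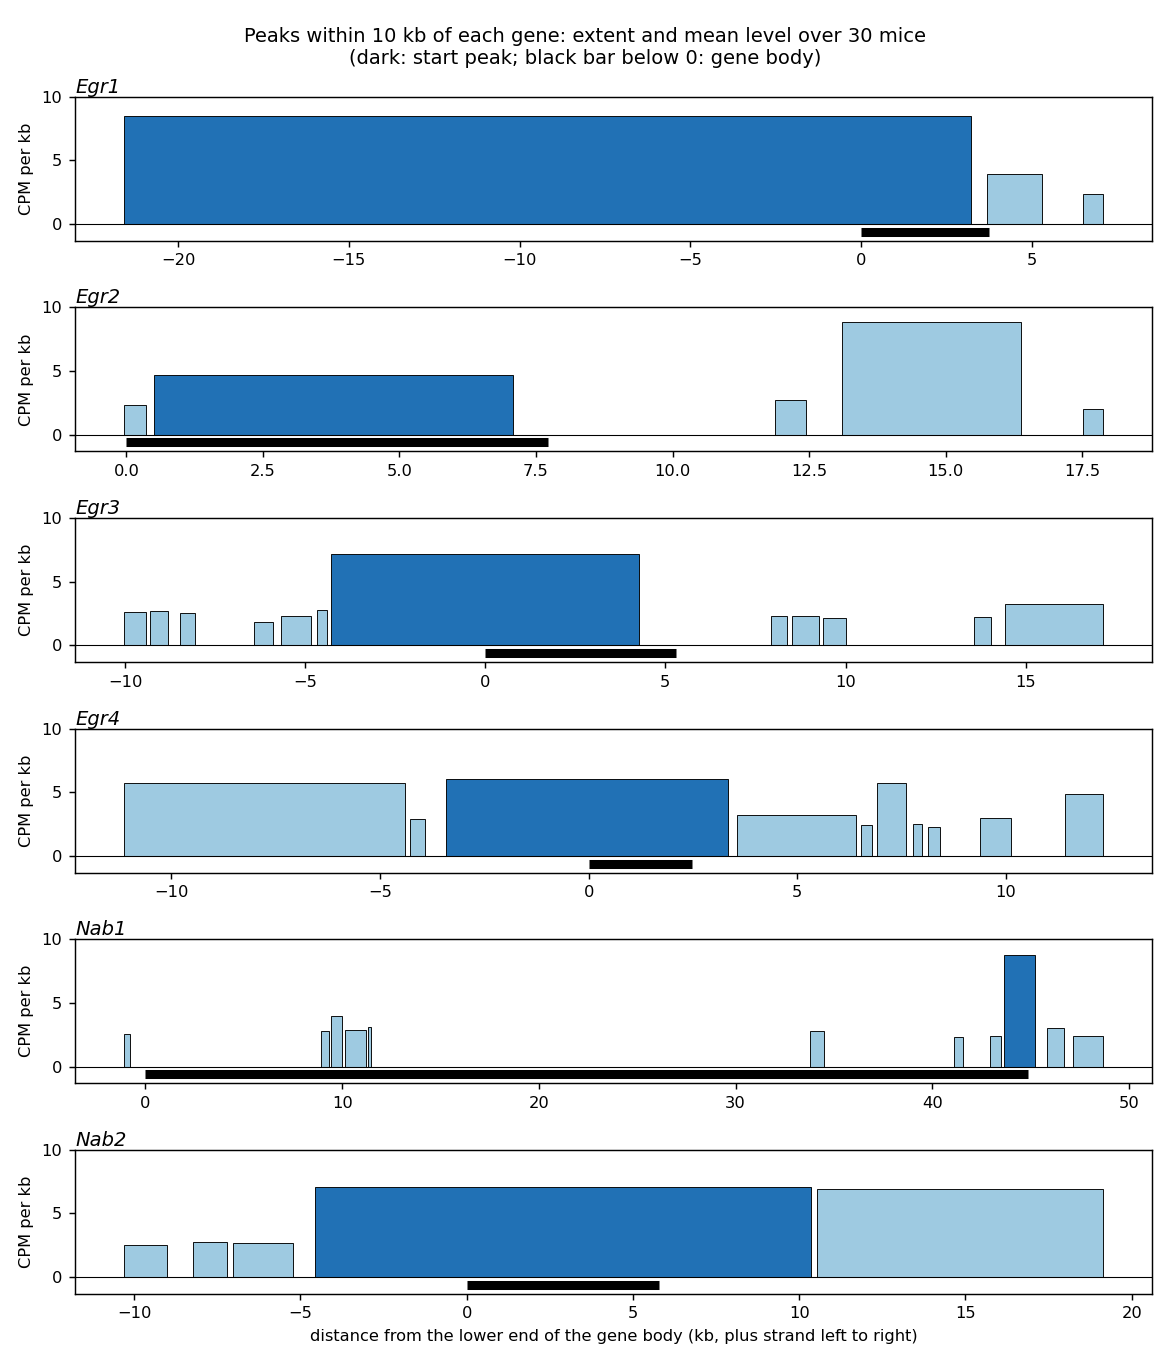
Peaks within 10 kb of each of the 6 genes, drawn by distance from the lower end of the gene body (kb, plus strand from left to right) with the mean level over 30 mice (CPM per kb) as height. Dark bars are the start peaks, from 1538 bp at Nab1 to 24806 bp at Egr1, light bars the other 40 peaks, and the black bar below 0 is the gene body.

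Outside the starts, the most open of the other 40 peaks lay over a neighbour. This was a peak of 3267 bp over Ado, a thiol dioxygenase gene, 5385 bp beyond Egr2, and its mean of 8.88 CPM per kb was above that of each start peak. Beside Nab2, a peak of 8627 bp over Nemp1 had 6.92 CPM per kb. Near Egr4, a peak of 704 bp over no other gene had 5.76 CPM per kb, and a peak of 6729 bp over Fbxo41 had 5.71 CPM per kb. The remaining peaks were mostly narrow, with a median of 2.72 CPM per kb over the 40 peaks outside the starts. At the edge of the window, the outermost peaks inside it lay 9795 bp from Egr2 and 9410 bp from Egr3, with acute log2 changes of 0.076 and 0.17. The nearest peaks outside it lay 11052 bp from Egr3 and 11266 bp from Egr4, with 0.060 and 0.074.

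The starts of excitatory neuron marker genes were open to different degrees. Slc17a7, the vesicular glutamate transporter, had 7.97 CPM per kb and Camk2a 6.90, against 2.11 at Myh6 of heart muscle. Krt5 of skin had no peak over its start. Its only peak within 10 kb, 214 bp wide and outside the gene, had 3.04 CPM per kb. No peak lay within 10 kb of the liver gene Alb. Of the 9 marker lists used, none had a member peak called for acute restraint except that of oligodendrocytes, with 1 of 95 peaks, where 0.116% of all peaks were called. One library stood apart before any comparison: animal 45, a handled female at 0 min, had 42.1% of its counts within 1 kb of a gene end, against 37.7% to 39.6% in the rest of its group. Averaged acute and sex differences at the starts are given with and without it.

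Acute restraint left no detected change at any of the 46 peaks. Averaged over both histories, 0 of 46 peaks were called (edgeR quasi-likelihood test, adjusted p under 0.05), where 0.116% of all 257143 tested peaks were called, 0.0731% higher and 0.0432% lower. At an unadjusted p under 0.05 there were 3 of 46, which is 6.52% against 7.17% of all peaks. Limma also called 0 of 46, and DESeq2 0 of the 31 to which it gave an adjusted p, with 3 of 46 at an unadjusted p under 0.05. The median log2 change of the 46 was -0.0078, with 20 positive, and the median over all tested peaks was -0.0025. All 46 passed the filter on low counts.

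Egr1, the best studied of the activity-induced factors, had an almost level start peak. In handled mice the lowest, median and highest values were 192, 207 and 261 CPM at 0 min and 198, 209 and 229 CPM at 45 min. In chronically restrained mice they were 197, 207 and 231 CPM at 0 min and 199.7, 205 and 222 CPM at 45 min. All 4 groups overlapped, and the highest value was that of animal 45. The averaged acute log2 change was 0.0010 ± 0.034 (SE; 14 libraries at 45 min, 16 at 0 min; edgeR adjusted p = 0.998), and 0.019 without animal 45. In percent, the 95% interval of the change ran from -4.45% to 4.81%.

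Egr2, a regulator of hindbrain patterning and Schwann cell myelination that is also induced by activity, had a start peak with values of 27.6, 31.3 and 33.3 CPM (lowest, median, highest) in handled mice at 0 min and 29.9, 31.8 and 32.8 CPM at 45 min. With chronic restraint the values were 28.1, 30.6 and 32.6 CPM at 0 min and 28.5, 30.2 and 31.3 CPM at 45 min. The groups overlapped, and animal 45 was among the highest of its group without standing apart from it. The averaged change was -0.0097 ± 0.037 (adjusted p = 0.984, edgeR).

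Egr3, a close relative of Egr1 that is needed for muscle spindles, ran from 55.8 to 76.8 CPM (median 59.6) at 0 min and from 53.6 to 68.7 CPM (median 61.5) at 45 min in handled mice. Chronically restrained mice had 57.5 to 68.1 CPM (median 60.05) at 0 min and 56.7 to 66.8 CPM (median 59.05) at 45 min. The ranges overlapped, with animal 45 again highest. The averaged change was 0.0093 ± 0.039 (adjusted p = 0.986, edgeR).

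Egr4, the member that NAB proteins do not bind, had 38.6 to 53.2 CPM (median 40.3) at 0 min and 38.7 to 42.6 CPM (median 42.0) at 45 min in handled mice. With chronic restraint its start peak had 37.6 to 43.6 CPM (median 40.3) at 0 min and 38.0 to 46.2 CPM (median 40.4) at 45 min. Animal 45 held the top value, and the groups overlapped. The averaged change was 0.0069 ± 0.038 (adjusted p = 0.990, edgeR).

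Among the corepressors, Nab1, which is broadly expressed, had 11.7 to 17.5 CPM (median 12.3) in handled mice at 0 min and 12.2 to 15.5 CPM (median 14.4) at 45 min. After chronic restraint the values were 11.3 to 14.7 CPM (median 14.02) at 0 min and 11.0 to 14.9 CPM (median 12.9) at 45 min. The medians at 45 min thus lay on opposite sides of those at 0 min in the 2 histories, within overlapping ranges. The averaged log2 change was -0.0084 ± 0.049 (adjusted p = 0.990, edgeR). It was 0.061 ± 0.069 in handled and -0.078 ± 0.069 in chronically restrained mice, and their difference was -0.14 ± 0.097 (unadjusted p = 0.155, edgeR adjusted p = 1).

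Nab2, itself described as an EGR-induced gene that closes a feedback loop, had 98.5 to 127 CPM (median 105) in handled mice at 0 min and 101 to 114 CPM (median 104) at 45 min. Chronically restrained mice had 102 to 108 CPM (median 105) at 0 min and 98.0 to 111 CPM (median 103) at 45 min. The tightest group was that of chronically restrained mice at 0 min, and all ranges overlapped. The averaged change was -0.0071 ± 0.033 (adjusted p = 0.987, edgeR).

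**Figure D2:**
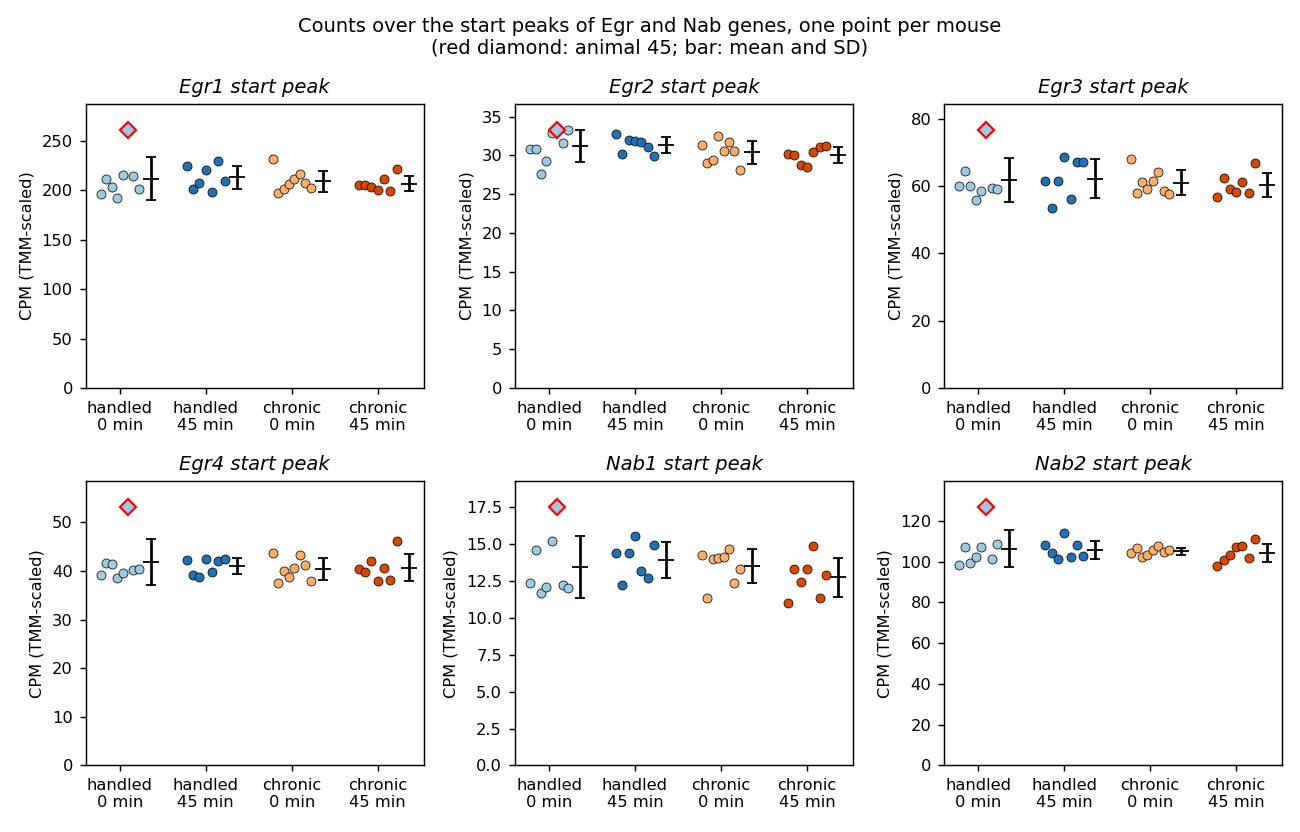
TMM-scaled CPM over the start peak of each gene, 1 point per mouse in the 4 groups, with the group mean and SD beside the points. The groups overlap at all 6 genes. Animal 45 (red diamond) is the highest of its group at Egr1 (261 CPM), Egr3, Egr4, Nab1 and Nab2 (127 CPM), and among the highest at Egr2.

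Together the 6 start peaks had averaged acute changes between -0.0097 and 0.0093, and the outermost bounds of their 95% intervals were -7.06% and 6.35%. A wide start peak did pass the test elsewhere in the same libraries: that of Plin4, a lipid droplet gene on a list chosen for having moved in these data, spanned 22569 bp and had a change of 0.27 ± 0.035 (adjusted p = 2.4e-06, edgeR). A count over a peak of several kb sums all of it, so a change in a narrow stretch of it was not resolved. Each batch held 1 female and 1 male per group, except that batch 4 had at 45 min only 1 handled male and 1 chronically restrained female. Within single batches the averaged change of the start peaks ran from -0.083 to 0.038 at Egr1, -0.047 to 0.020 at Egr2, -0.098 to 0.086 at Egr3, -0.061 to 0.054 at Egr4, -0.068 to 0.068 at Nab1 and -0.072 to 0.040 at Nab2, with both signs at each gene.

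In handled mice alone 0 of 46 peaks were called for acute restraint, where 0.0109% of all peaks were called, 0.00972% higher and 0.00117% lower. In chronically restrained mice 0 of 46 were called, where 0.00272% of all peaks were called. No peak of the 46 had group ranges that did not overlap in either history, a pattern shown by 0.0471% of all peaks in handled and 0.0459% in chronically restrained mice. At an unadjusted p under 0.05 the counts were 4 of 46 in handled mice (5.52% of all peaks) and 1 of 46 in chronically restrained mice (4.73%).

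**Figure D3:**
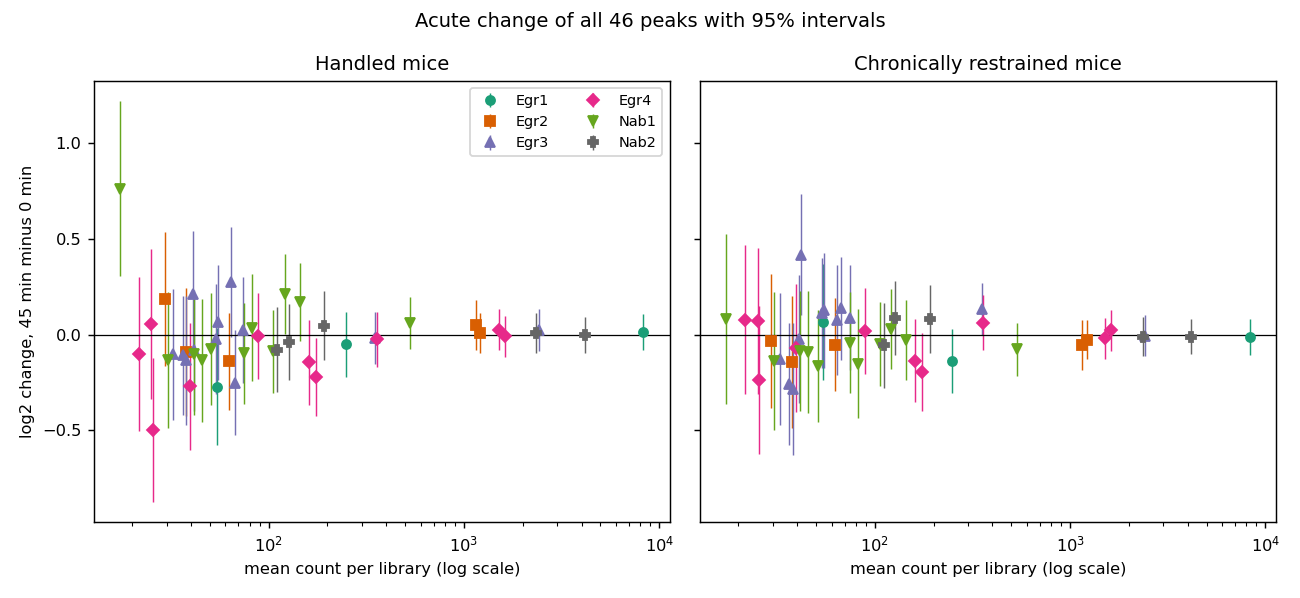
Acute log2 change (45 min minus 0 min) of all 46 peaks with 95% intervals, in handled and in chronically restrained mice, against the mean count per library on a log scale. Peaks over 1000 counts lie near 0 with narrow intervals, while the farthest points, such as the 0.76 of a Nab1 peak in handled mice, belong to peaks under 100 counts.

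The widest excursions lay in shallow peaks away from the starts. Averaged over histories, the changes of the 46 ran from -0.37 at an Egr4 peak to 0.42 at a Nab1 peak, both under 100 counts. In handled mice they ran from -0.50 at an Egr4 peak to 0.76 at the same Nab1 peak, and none was called. For the 8 peaks over 1000 counts the averaged change had intervals of ± 0.074 (median), for the 12 peaks of 100 to 1000 counts ± 0.14 and for the 26 peaks under 100 counts ± 0.22. The peaks named next are those with the smallest p at each gene or in a comparison, so their sizes are those of a selected extreme.

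For acute restraint averaged over histories, the smallest p belonged to a peak before the start of Egr4, chr6:85522545-85523463, 8956 bp from the gene. In handled mice it had 4.00 to 6.02 CPM (median 4.74) at 0 min and 3.57 to 4.86 CPM (median 3.93) at 45 min. Chronically restrained mice had 3.20 to 5.97 CPM (median 4.88) at 0 min and 3.27 to 5.08 CPM (median 3.97) at 45 min. Both medians were lower at 45 min, and the ranges overlapped. The change was -0.21 ± 0.072 (unadjusted p = 0.0050, edgeR adjusted p = 0.378). It was negative in each of the 4 batches, from -0.22 to -0.20, and was -0.31 in females and -0.086 in males.

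Inside Nab1, a peak of 143 bp at chr1:52467172-52467314 with a mean of 17.3 counts had the largest positive value. In handled mice it had 0.203 to 0.518 CPM (median 0.330) at 0 min and 0.413 to 1.05 CPM (median 0.516) at 45 min. After chronic restraint it had 0.218 to 0.616 CPM (median 0.415) and 0.285 to 0.664 CPM (median 0.505). The handled groups overlapped only in part, and 1 animal at 45 min stood far above the rest of its group. The change in handled mice was 0.76 ± 0.23 (unadjusted p = 0.0014, edgeR adjusted p = 0.537), in batches from 0.043 to 1.29. The change in chronically restrained mice was 0.079 ± 0.22, and the difference between histories was -0.68 ± 0.32 (adjusted p = 1, edgeR).

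A peak 8261 bp from Egr3, chr14:70090874-70091344, had the smallest p in chronically restrained mice. It had 0.597 to 1.04 CPM (median 0.909) at 0 min and 0.827 to 1.54 CPM (median 1.17) at 45 min in these mice, and 0.789 to 1.54 CPM (median 1.08) and 0.784 to 1.46 CPM (median 0.909) in handled mice. The medians moved in opposite directions in the 2 histories, with overlap in both. The log2 change was 0.42 ± 0.16 with chronic restraint and -0.083 ± 0.16 with handling, a difference of 0.50 ± 0.22 (unadjusted p = 0.028, edgeR adjusted p = 1). That difference was positive in each of the 4 batches, from 0.081 to 0.85.

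At the other genes the peaks with the smallest p for the averaged effect had the following log2 changes. Egr1 had -0.094 ± 0.060 at a peak over the upper end of the gene (batches from -0.15 to -0.0081). Egr2 had -0.096 ± 0.088 over Ado (batches from -0.19 to 0.072), Egr3 -0.21 ± 0.12 at 2647 bp from the gene (batches from -0.56 to 0.091), and Nab2 0.064 ± 0.063 over Stat6 (batches from -0.079 to 0.24). None had an adjusted p under 0.769 (edgeR).

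A history of chronic restraint was compared with handling at each time. At 0 min 0 of 46 peaks were called and 0% of all peaks, at 45 min 0 of 46 and 0% of all peaks, and averaged over both times 0 of 46 and 0% of all peaks (edgeR). No peak of the 46 had history groups with separate ranges, as 0.0105% of all peaks did at 0 min and 0.0513% at 45 min. Unadjusted p values under 0.05 numbered 0 of 46 at 0 min (4.6% of all peaks), 3 of 46 at 45 min (3.78%) and 2 of 46 averaged (5.44%). The handled and chronically restrained mice at each time are also the arms of the acute comparisons, so these values share samples with those above.

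At 45 min all 6 start peaks had lower estimates after chronic restraint, and none was called. The log2 differences were -0.13 ± 0.071 at Nab1, -0.068 ± 0.054 at Egr2, -0.046 ± 0.056 at Egr3, -0.045 ± 0.049 at Egr1, -0.028 ± 0.048 at Nab2 and -0.013 ± 0.055 at Egr4. Intervals of all 6 included 0, and the smallest unadjusted p was 0.064. The start peaks vary together between libraries, so 6 like signs are not 6 separate observations. In batch 4 this comparison sets 1 male against 1 female. In the other 3 batches the sign was negative in 3 of 3 at Nab1, Egr1 and Egr2, in 2 of 3 at Egr4 and Nab2 and in 1 of 3 at Egr3. With the gene-end share as a covariate the Egr4 value became 0.020, and the other 5 lay between -0.090 and -0.0035. The part of that share in these values was not tested beyond this.

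Away from the starts, the smallest p at 45 min belonged to a peak 2302 bp before the Nab1 body, over the pseudogene Gm5976 and the long noncoding RNA gene Gm553. It had 3.32 to 5.23 CPM (median 3.89) in handled and 2.88 to 4.13 CPM (median 3.38) in chronically restrained mice, with overlapping ranges. The difference was -0.24 ± 0.11 (unadjusted p = 0.025, edgeR adjusted p = 1), and it was negative in each of the 3 batches with both sexes in both arms. In batch 4, with 1 male against 1 female, it was 0.35. By sex it was -0.059 in females and -0.42 in males. Averaged over both times, a peak over Stat6 and the long noncoding RNA gene Gm30989, 9014 bp from Nab2, had the smallest p. Its values were 2.60 to 3.98 CPM (median 3.03) in handled mice and 2.91 to 3.62 CPM (median 3.33) in chronically restrained mice at 0 min. At 45 min they were 2.25 to 3.65 CPM (median 3.02) and 3.05 to 3.91 CPM (median 3.56), again with overlap. The averaged difference was 0.16 ± 0.070 (unadjusted p = 0.028, edgeR adjusted p = 0.912) and was positive in each of the 4 batches.

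Whether history altered the acute response was tested as an interaction. Of the 46 peaks 0 were called, and 0% of all peaks (edgeR); 3 of 46 had an unadjusted p under 0.05, against 3.03% of all peaks. At the start peaks the difference in acute change between histories ran from -0.14 at Nab1 to 0.031 at Egr4. The 95% interval of the difference ran from -10.5% to 7.51% at Egr1, from -9.21% to 8.69% at Nab2, from -7.94% to 13.4% at Egr4 and from -20.6% to 3.79% at Nab1, and it included 0 at all 6 genes.

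**Figure D4:**
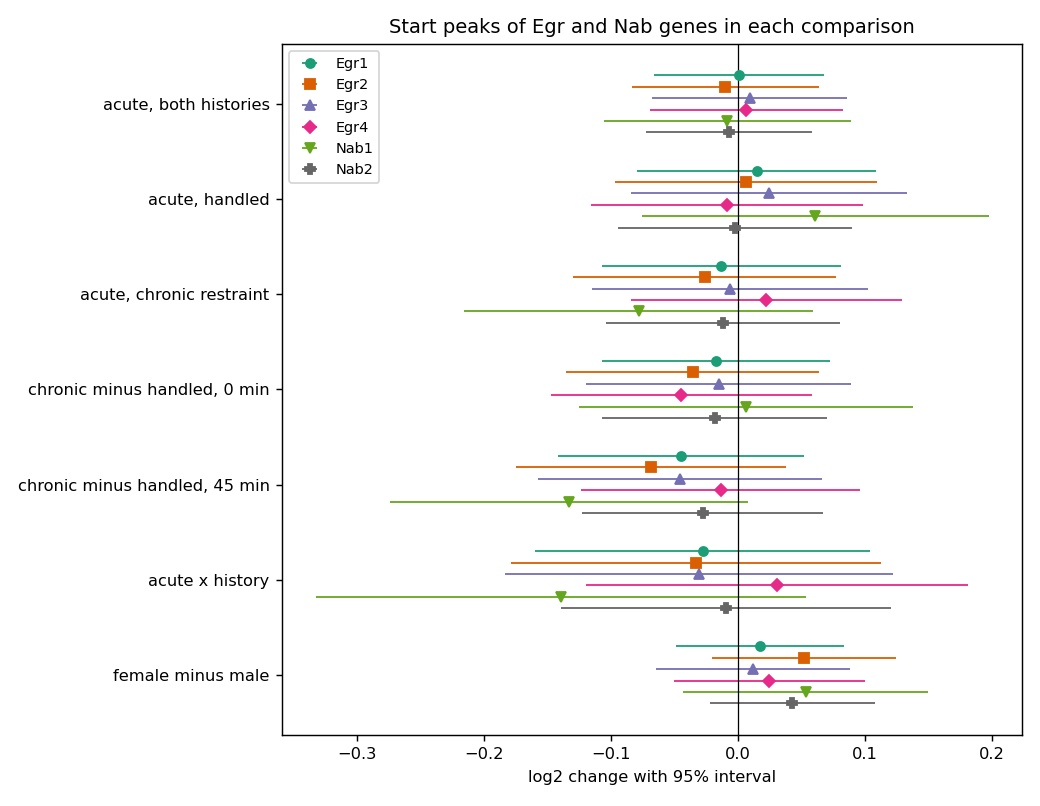
Log2 changes of the 6 start peaks with 95% intervals in 7 comparisons. All intervals include 0, those of the averaged acute effect are centred between -0.0097 and 0.0093, and the lowest values are those of Nab1, -0.13 for history at 45 min and -0.14 for the interaction.

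Between the sexes, 0 of 46 peaks were called, where 0.035% of all peaks were called, 0.0327% higher and 0.00233% lower in females, and 2 of 46 had an unadjusted p under 0.05 (5.37% of all peaks). Estimates at the 6 start peaks were higher in females, from 0.012 at Egr3 to 0.053 at Nab1, with all intervals including 0. Animal 45 is a female. Without it the values of Egr1, Egr3 and Egr4 turned negative, at -0.0091, -0.013 and -0.0010, and those of Egr2, Nab1 and Nab2 were 0.042, 0.025 and 0.022. With the gene-end share as a covariate the values of Egr1, Egr3, Egr4 and Nab1 were negative (-0.031, -0.037, -0.021 and -0.0053), and those of Egr2 and Nab2 were 0.030 and 0.011. The smallest p was at a peak of 345 bp, 3932 bp past the end of Egr4, with 0.564 to 1.15 CPM (median 0.875) in 15 females and 0.681 to 1.68 CPM (median 1.11) in 15 males. The ranges overlapped, and the difference was -0.31 ± 0.12 (adjusted p = 0.906, edgeR), with the opposite sign, 0.12, in batch 2.

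Animal 45 stood apart at the start peaks of Egr1, Egr3, Egr4 and Nab2. It had 261 CPM at the Egr1 start peak, where the next of its group had 216, and 53.2 CPM at the Egr4 start peak, where the next had 41.5. Its removal moved the averaged acute change by small amounts, to 0.019 at Egr1, 0.026 at Egr3, 0.025 at Egr4, 0.013 at Nab1, 0.0076 at Nab2 and -0.0034 at Egr2. Member peaks called without it were 0 in each comparison, while the count over all peaks for the averaged acute effect went from 299 to 681.

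The start peaks of the members varied together across libraries. Pearson's r of log2 CPM over the 30 libraries was 0.86 for Egr1 with Egr4, 0.84 for Egr1 with Egr3 and 0.83 for Egr3 with Egr4, while Egr2 had 0.36 to 0.53 with the other factors. Nab1 and Nab2 had 0.62 with each other. Against the start peaks of all other protein-coding genes, the median r was 0.54 for Egr1, 0.30 for Egr2, 0.51 for Egr3, 0.55 for Egr4, 0.47 for Nab1 and 0.47 for Nab2. All share the libraries and so the scaling and the gene-end share, and animal 45 is among them. The start peaks most like each member were those of Ints6 for Egr1 (0.93), Hivep1 for Egr2 (0.76), Btbd6 for Egr3 (0.87), Mex3b for Egr4 (0.93), Usp4 for Nab1 (0.88) and Pik3ip1 for Nab2 (0.88), each over 30 libraries.

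Other genes of the pathway were read against the 0.116% of all peaks called for the averaged acute effect, a share at which lists of this size hold few or no calls. Peaks within 10 kb of 13 genes upstream of Egr transcription (serum response factor, its partners, CREB and the ERK kinases) numbered 438, of which 0 were called for the averaged acute effect, with a median log2 change of 0.012. Srf itself had 0.0079 ± 0.032 at its start peak and Creb1 0.0097 ± 0.049. Among 16 described EGR target genes 0 of 230 peaks were called, with a median of -0.0088. Arc, the synaptic cytoskeletal gene driven by activity, had -0.026 ± 0.036. Nr3c1, the glucocorticoid receptor gene, had -0.24 ± 0.092 (adjusted p = 0.470, edgeR) at a 565 bp peak. That peak began 753 bp from the lower end of the gene, and whether it covers a start was not established. Bdnf, a neurotrophin gene, had -0.12 ± 0.045 (adjusted p = 0.459, edgeR) at its start peak.

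Of 13 NuRD subunit genes, the complex that NAB proteins recruit, 0 of 287 peaks were called, against 0.116% of all peaks, with a median of 0.020. Chd4, its main remodelling ATPase in many tissues, had 0.0052 ± 0.035. Among 9 other immediate early factors 0 of 73 peaks were called, with a median of -0.011, and the smallest adjusted p was 0.078 at a peak within 10 kb of Npas4, a neuronal activity factor, with -0.19 ± 0.046. A list of 7 glucocorticoid targets, chosen because they had moved in these same data, had 14 of 200 peaks called, all higher (0.0731% of all peaks), with a median of 0.12. That list is therefore no independent evidence, and the difference between lists was not tested.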

How the data were processed

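The members and the gene lists were chosen with earlier results of these data known. The authors deposited 1 table of whole-number counts per peak region for all libraries, unnormalised. Genrich 0.6.1, Bowtie2, Trimmomatic and Picard were used on GRCm38, per the submitters' processing notes. How regions were merged, and whether reads, fragments or cut sites were counted, is not given in the sources used here. Of the table's columns, 2 matched no sample and were not used. Columns were assigned to animals by their labels, and replicates are separate animals.

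Gene extents and starts came from RefSeq tables (GRCm38), matched by symbol, with GenomicRanges 1.54.1 in R 4.3.3. In edgeR 4.0.16, filterByExpr removed 6 of 257149 peaks. TMM scaling and a robust quasi-likelihood model held the 4 groups, sex and batch, and p was adjusted by Benjamini-Hochberg over all 257143 peaks in each comparison. Standard errors are the coefficient over the root of F. CPM are TMM-scaled, and log2 CPM for correlations used a prior count of 2. Tested on simulated counts for the averaged acute effect (257143 peaks, 200 changed), the model called 63% of peaks changed by 0.5 and 100% of those changed by 1 (log2), and 4.12% of calls were false. The simulated counts held no batch or sex difference and no library like animal 45, so these shares need not hold for the real counts. Peaks were named by rule: at every gene its start peak, its most covered peak and its lowest p for acute restraint over both histories, and among the 46 the lowest p of each other comparison. For Egr1, Egr3 and any other gene without a listed start, the start peak is the most covered peak within 1 kb of a gene end. Where no peak covered a listed start, the nearest peak was used. Alternatives covered scaling, filter, covariates, DESeq2 1.42.0, limma 3.58.1, single batches and sexes, left-out libraries, the window and the threshold. PCR copies are not independent molecules. The result of 1 gene list is not reported here.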

Additional observations from a re-analysis of the deposited data

Results flagged for a closer look

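In the 16 named peaks, each group was searched for a highest or lowest animal that lies farther from its neighbour than chance allows in about 1 of 20 groups (Dixon's ratio at the 95% level). Of 64 groups 8 held such an animal. Animal 45, a handled female at 0 min, accounted for 6 of them. It was highest at the start peaks of Egr1 (261 CPM), Egr3 (76.8 CPM), Egr4 (53.2 CPM) and Nab2 (127 CPM). It was lowest at 2 peaks away from starts, 2647 bp from Egr3 (0.421 CPM) and 2302 bp from Nab1 (2.38 CPM). Among handled mice at 45 min, animal 52 was highest at the peak over the upper end of Egr1 (7.36 CPM), and animal 18 was highest at the 143 bp peak within Nab1 (1.05 CPM). With animal 18 left out, the averaged acute change of that Nab1 peak was 0.33, the lowest of the 30 limma values with 1 library left out.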

How the results depend on the processing

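In each of the 8 comparisons the number of member peaks called was 0, and it was 0 under all 54 alternatives, which gave 429 counts. These cover the gene body alone, 50 kb on both sides, peaks over or nearest to the member, an adjusted p under 0.1, other scalings, filters and covariates, DESeq2, limma, single batches and sexes, and each library left out in turn by limma (lowest 0, highest 0). Of 6344 log2 changes of named peaks, 5924 lay within 1 SE of the reported value, and 420 did not, most of them in single batches or sexes. DESeq2 gave an adjusted p to 31 of the 46 for the averaged acute effect, 42 in handled and 30 in chronically restrained mice, and to 46 in each other comparison. No paired analysis was possible because animal numbers are not shared between groups. The count over all peaks for the averaged acute effect, 299, was 40 without batch 2, 140 without batch 3, 681 without animal 45 (in handled mice alone 108 against 28, in chronically restrained mice alone 47 against 7), 525 with total count scaling, 1762 with the gene-end share and 1766 with the share of counts in the top 1% of peaks as covariates (the gene-end share was chosen after seeing the data). Depth limits the peaks under 100 counts, whose intervals were ± 0.22 (median), and batches alone leave few animals per group.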
